A study of Mus musculus with 12 samples.

Results

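The regions described here are R-loop peaks of HEPA1-6, a mouse hepatoma cell line, that had no counterpart in the peak list of mouse liver. They were selected on measured values: a peak was taken if the authors' HEPA1-6 list gave it a strand, if it lay on chromosomes 1 to 14 or 16 to 19, and if it shared not even 1 bp with any interval of the liver list. This gave 17694 members among 25355 stranded HEPA1-6 peaks on these 18 chromosomes (69.8%), and 28717 peaks in the whole HEPA1-6 list. The other 7661 stranded peaks overlapped a liver interval and serve as the comparison throughout; of the peaks not used, 2454 lay on chromosome 15, X, Y, mitochondrial or unplaced sequence and 908 had no strand.

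The series, on R-loops and genome editing with adeno-associated virus vectors, holds 12 libraries in 6 groups of 2. HEPA1-6 cells in culture and liver of C57/Bl6 mice, both labelled WT and with no treatment, were each profiled as an S9.6 immunoprecipitate, as an S9.6 immunoprecipitate treated with RNase H1, and as input DNA. The labels give hepatocyte as the cell type of both sources; HEPA1-6 is a single tumour-derived line, liver is a tissue of several cell types, and neither the age of the mice nor whether animals were pooled is given in the sources used here. Each source has 1 deposited peak list, called on a merged immunoprecipitate, so no spread between replicates can be given and no difference below carries a p-value. The intervals printed are 95% Wilson intervals; they take in counting error alone, although adjacent peaks are not independent of each other. The depth behind either list is unknown, and a peak missing from the liver list may lie below the threshold of that list. The label of the liver list was set beside marker genes: a liver-list peak lay at 7 of 39 hepatocyte genes and at 22 of 39 cell cycle genes. Their median lengths are 10898 and 18378 bp, and 7 and 21 held an overlapping HEPA1-6 peak. Over all 19889 protein-coding genes, a liver-list peak lay at 3257 with both members and overlapping peaks and 2190 with overlapping peaks only. It also lay at 207 with members only and 357 with neither. These counts do not settle the label, and the name is used below only as the label of the list.

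An R-loop forms when RNA pairs with the template strand of the DNA and leaves the other DNA strand single. The S9.6 antibody binds RNA-DNA hybrids, and RNase H1 removes the RNA of a hybrid. R-loops are known to form where RNA polymerase transcribes, above all near CpG island promoters with an excess of G over C on the non-template strand and near transcription termination sites.

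Promoters under high-scoring members are shown first, since the score is the only height the lists give. Each line holds the 250 bases before a RefSeq start site (GRCm38.p6), read 5′ to 3′ on the strand of the gene, with every run of 4 or more G or C in capitals. The first 6 are those under the highest-scoring members that hold a whole promoter window of a protein-coding gene, among genes with an established name. The last 2, H3f3b and H1f4, were taken by the same rule from the overlapping peaks, for comparison; peaks that hold no whole window reach higher scores.
Crtc3: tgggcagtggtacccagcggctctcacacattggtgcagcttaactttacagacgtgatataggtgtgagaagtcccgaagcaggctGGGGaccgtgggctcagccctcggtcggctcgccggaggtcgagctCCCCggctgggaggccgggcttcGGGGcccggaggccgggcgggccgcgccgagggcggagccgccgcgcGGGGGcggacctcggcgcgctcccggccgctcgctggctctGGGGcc
Psmd6: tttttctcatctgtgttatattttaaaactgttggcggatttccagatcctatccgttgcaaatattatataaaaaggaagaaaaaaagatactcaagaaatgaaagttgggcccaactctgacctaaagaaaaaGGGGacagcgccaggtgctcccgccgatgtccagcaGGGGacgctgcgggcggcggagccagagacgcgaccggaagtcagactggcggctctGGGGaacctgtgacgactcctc
Mier3: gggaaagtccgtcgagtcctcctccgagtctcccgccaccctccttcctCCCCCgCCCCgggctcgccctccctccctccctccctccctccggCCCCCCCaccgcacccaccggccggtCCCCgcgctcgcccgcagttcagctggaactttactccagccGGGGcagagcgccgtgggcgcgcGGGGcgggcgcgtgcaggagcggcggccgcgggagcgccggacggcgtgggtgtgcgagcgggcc
Thoc7: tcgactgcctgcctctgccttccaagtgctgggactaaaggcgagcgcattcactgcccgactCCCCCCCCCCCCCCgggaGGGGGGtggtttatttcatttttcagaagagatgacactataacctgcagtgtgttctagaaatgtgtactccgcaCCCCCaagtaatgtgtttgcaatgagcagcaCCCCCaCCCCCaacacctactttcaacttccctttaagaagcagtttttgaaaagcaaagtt
Txlna: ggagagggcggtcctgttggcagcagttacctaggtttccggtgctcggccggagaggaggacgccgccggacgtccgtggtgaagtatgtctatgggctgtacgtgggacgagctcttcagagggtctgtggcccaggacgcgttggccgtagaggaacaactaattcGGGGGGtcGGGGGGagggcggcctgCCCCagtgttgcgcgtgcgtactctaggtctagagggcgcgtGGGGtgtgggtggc
Ap3b1: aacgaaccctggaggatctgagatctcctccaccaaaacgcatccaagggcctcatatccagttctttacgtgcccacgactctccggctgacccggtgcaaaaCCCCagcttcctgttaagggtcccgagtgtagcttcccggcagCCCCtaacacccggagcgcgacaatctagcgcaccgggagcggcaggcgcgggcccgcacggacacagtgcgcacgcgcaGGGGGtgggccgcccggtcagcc
H3f3b: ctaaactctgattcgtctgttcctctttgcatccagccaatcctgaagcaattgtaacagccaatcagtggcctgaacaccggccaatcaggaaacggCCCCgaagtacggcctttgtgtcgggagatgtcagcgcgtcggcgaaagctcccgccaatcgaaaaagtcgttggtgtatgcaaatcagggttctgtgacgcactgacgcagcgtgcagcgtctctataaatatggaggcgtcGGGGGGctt
H1f4: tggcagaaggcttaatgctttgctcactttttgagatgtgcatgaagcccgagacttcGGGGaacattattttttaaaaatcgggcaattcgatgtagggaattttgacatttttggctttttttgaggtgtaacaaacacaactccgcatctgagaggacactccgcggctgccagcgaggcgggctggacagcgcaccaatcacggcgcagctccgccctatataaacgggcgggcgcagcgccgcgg

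Crtc3 encodes a coactivator of CREB, and its window (chr7:80688878-80689127, minus strand) lay in a member with a score of 75. Psmd6 encodes a subunit of the proteasome lid, and its window (chr14:14120946-14121195, minus strand) lay in a member of 2928 bp with a score of 55. Mier3, with a window at chr13:111685928-111686177 on the plus strand, had a member score of 52, and its window holds 4 runs of C against 2 of G. Thoc7 and Txlna, with windows at chr14:13961853-13962102 and chr4:129640806-129641055, both minus, each had a member score of 49; Thoc7 belongs to the THO complex, which couples transcription to mRNA export. Ap3b1 encodes a subunit of an adaptor complex of vesicle transport. Its window (chr13:94358710-94358959) is on the plus strand, while the member over it, with a score of 48, was given the minus strand. The histone gene promoters carried far higher scores, 708 at H3f3b (chr11:116024505-116024754, minus strand) and 610 at H1f4 (chr13:23622559-23622808, minus strand). The 6 member promoters ranged from 51.3% GC in the 300-base window of Thoc7 to 78.7% in that of Mier3.

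Members were narrower and lower in score than the peaks that overlapped the liver list. The median score of members was 18 (interquartile range 14 to 23, from 10 to 1259) and that of overlapping peaks 35 (25 to 53, from 10 to 4359). The score is the authors' value per peak on a scale that is not given, and it is used only within the HEPA1-6 list. The median width was 856 bp (442 to 1455 bp) for members and 2852 bp (1528 to 5172 bp) for overlapping peaks. Members therefore made up 69.8% of the stranded peaks but 40.1% of their bases (20.2 Mb against 30.1 Mb). A wider peak has more bases that can meet a liver interval, so width is tied to the rule itself and these differences are descriptive.

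The share of peaks absent from the liver list fell steeply with both measures. Of peaks with a score under 20 and a width under 1000 bp, 7053 of 7445 were members (94.7%). Of peaks with a score of 50 or more and a width of 2000 bp or more, only 10 of 1621 were (0.617%, interval 0.335 to 1.13%). Score had a relation to the share at a fixed width as well. Among peaks of 200 to 499 bp, the share was 95.6% at scores of 10 to 19, 85.6% at 30 to 49 and 56.2% (104 of 185) at 50 or more. Among peaks of 2000 to 3999 bp it was 82.3%, 24.5% and 1.49% in the same score bands.

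**Figure D1:**
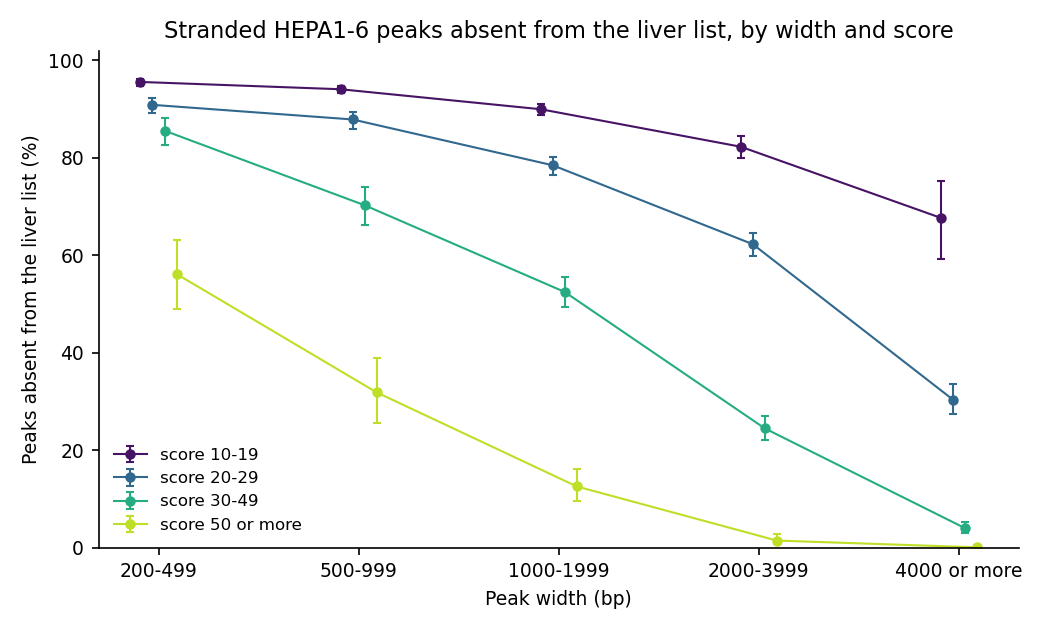
Share of stranded HEPA1-6 peaks absent from the liver list (vertical axis, %) by peak width (horizontal axis, bp), with 1 line per band of score. Points are shares, bars are 95% Wilson intervals; every line falls from narrow to wide peaks, from 95.6% to 67.7% at scores of 10 to 19 and from 56.2% to 0.0985% at 50 or more.

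The 10 wide, high-scoring exceptions were singled out after their values were seen. The only member with a score of 50 or more and a width of 4000 bp or more was chr2:30172105-30176216, with a score of 54 over Endog, a mitochondrial nuclease, and Spout1; it lay 76.0 kb from the nearest liver interval. A member of 2928 bp covered the start of Psmd6, 159 kb from a liver interval. Vcp, which encodes a segregase ATPase acting on ubiquitinated proteins, held one of 2335 bp with a score of 52. Thrap3, linked to splicing and the Mediator complex, held one of 3397 bp with a score of 54 at its 3′ boundary. Snd1, Nabp1, Pafah1b1, Abca8b, Serbp1 with Il12rb2, and the pseudogene 6820431F20Rik held the others, with scores from 50 to 71. Nabp1, a single-stranded DNA binding protein, had its member 1.13 kb from a liver interval, so these exceptions include near neighbours of liver peaks as well as remote ones.

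Few members lay right beside a liver interval, but most (84.5%) lay within 100 kb of one. The gap to the nearest liver interval had a median of 16134 bp (5266 to 56755 bp). It was 1 kb or less for 177 members (1.00%), over 10 kb for 61.1% and over 100 kb for 15.5%. At the limit of the rule, the 3 members nearest to a liver interval lay 98, 160 and 222 bp away, and the 3 overlapping peaks with the least overlap shared 1, 1 and 4 bp. Among the overlapping peaks, 73 shared under 100 bases and 416 shared under 10% of their bases. When each peak of a pair had to cover 50% of the other, 87.1% of stranded peaks were absent from the liver list in place of 69.8%. The share of members varied over chromosomes from 61.8% on chromosome 5 to 76.9% on chromosome 14.

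The highest-scoring members were narrow, and many lay outside genes. The top member was chr2:57629491-57629722, a minus-strand peak of 232 bp with a score of 1259, 13925 bp from the nearest gene Gm13533 and 505 kb from a liver interval. The next, chr13:9834306-9834529, had a width of 224 bp and a score of 245, also outside genes. Of the 11 members with a score of 100 or more, 5 lay outside annotated genes, compared with 1123 of all 17694 members (6.35%), and their median width was 432 bp. Next came chr14:69162002-69162456 and chr18:47118183-47118654, outside genes, with scores of 161 and 141, and a member of 317 bp just outside Ranbp9 with a score of 138. Inside genes, Tusc3, a subunit of the oligosaccharyltransferase complex, held a member with a score of 134, and Mettl5, an RNA methyltransferase of ribosomal RNA, one of 131. Nrg1, a ligand of ErbB receptors, held one of 112 that lay 576 kb from a liver interval, and Ccdc39, a protein of motile cilia, one of 105.

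The widest members had ordinary scores. The widest, chr7:28889146-28901653, measured 12508 bp with a score of 23 and reached over Actn4, an actin cross-linker, and Capn12. Further ones lay over Gtf2e2 and Rbpms (10399 bp), over Calu and Opn1sw (10247 bp), and over Fdx2, Raver1, Gm38431 and Mir7082 (10203 bp). The scores of the members named here were 23 or 24. Gtf2e2 encodes a subunit of the general transcription factor TFIIE.

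Members lay mostly inside genes, and less often at gene ends than overlapping peaks did. A gene was overlapped by 93.7% of members (interval 93.3 to 94.0%) and 95.6% of overlapping peaks. Of the 1123 members outside genes, 1027 lay within 5 kb of one. Both kinds of peak had to have a strand, and how it was given is not stated. Whether that requirement selects peaks in or near genes was not tested. Of members, 9.24% (8.82 to 9.68%) lay within 1 kb of the 5′ boundary of a gene, protein-coding or lncRNA, against 38.7% (37.6 to 39.8%) of overlapping peaks. The share of gene sequence within 1 kb of a boundary was not computed, so avoidance of gene ends was not tested. At 3′ boundaries the shares were 11.1% (10.7 to 11.6%) and 30.1% (29.1 to 31.1%). In a gene but at neither boundary lay 77.5% of members and 41.6% of overlapping peaks. Peaks that met 2 or more genes made up 7.97% of members and 26.3% of overlapping peaks. The member shares at boundaries depended on the definition: by the peak midpoint they were 6.76% (5′) and 7.16% (3′), with a flank of 2 kb 13.1% and 17.1%, and with 50% overlap required for a shared peak 14.1% and 15.4%. The gene table holds boundaries without exons, so exons, introns and untranslated regions were not told apart.

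Within bands of equal width the 5′ difference remained and the 3′ difference became small for narrow peaks. Among peaks of 500 to 999 bp, 7.62% of members (6.95 to 8.35%) and 27.1% of overlapping peaks (24.0 to 30.6%) lay at a 5′ boundary. At 3′ boundaries the same peaks gave 8.98% (8.25 to 9.76%) and 9.87% (7.86 to 12.3%), intervals that overlap. Among peaks of 4000 bp or more the 5′ shares were 16.8% and 43.7% and the 3′ shares 31.0% and 52.5%. Holding score as well as width left the same order: for peaks of 500 bp to under 2000 bp with scores of 20 to 29, 11.2% of members and 29.4% of overlapping peaks were at a 5′ boundary, and 10.9% and 11.7% at a 3′ boundary.

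**Figure D2:**
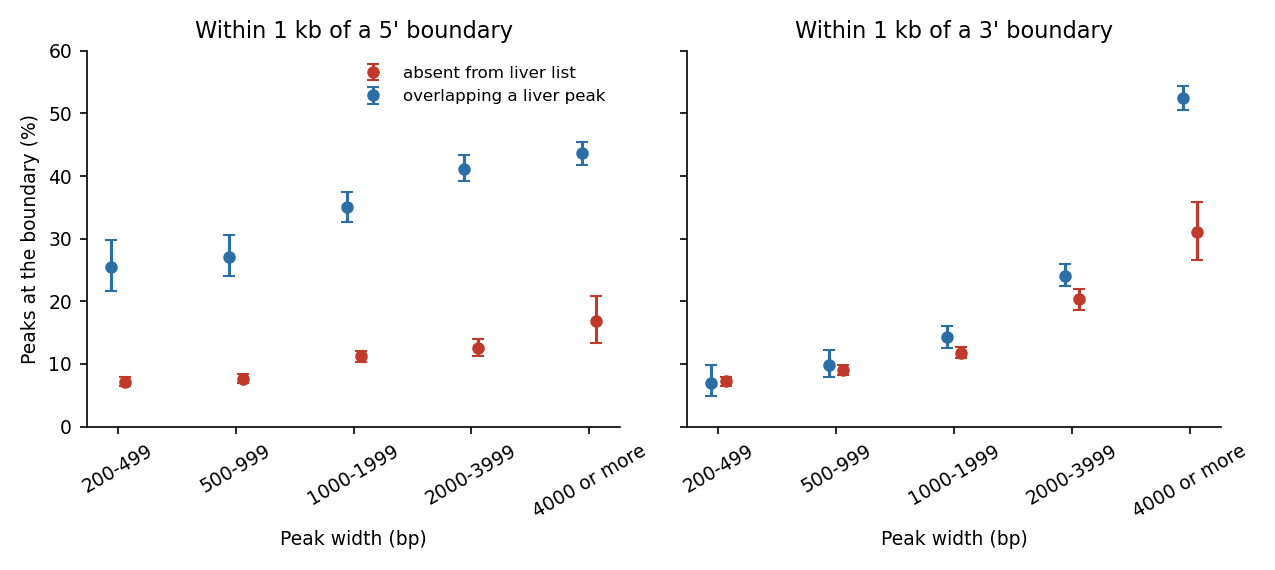
Share of peaks within 1 kb of a gene's 5′ boundary (left) or 3′ boundary (right), in %, by peak width in bp, for members (red) and overlapping peaks (blue), with 95% Wilson intervals. The 5′ shares are apart in every width band, from 7.09% against 25.5% in the narrowest to 16.8% against 43.7% in the widest. The 3′ intervals overlap at 200 to 499 bp and 500 to 999 bp, and just overlap at 1000 to 1999 bp.

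Along the gene, members were spread nearly evenly. For genes of 10 kb or more, the midpoints of 13700 members were placed in 10 equal bins of the gene from its 5′ boundary. The first bin held 11.6% of members, bins 2 to 8 held 8.55 to 9.89%, bin 9 held 11.7% and the last 13.1%. Of 4325 overlapping peaks, 26.2% lay in the first bin and 12.8% in the last. The median distance from the 5′ boundary was 23816 bp for members and 13411 bp for overlapping peaks, in genes with a median length of 58592 and 42396 bp. In 2480 genes that held members and liver-list peaks, the median member lay further from the 5′ boundary than the median liver peak in 1473 genes (59.4%).

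**Figure D3:**
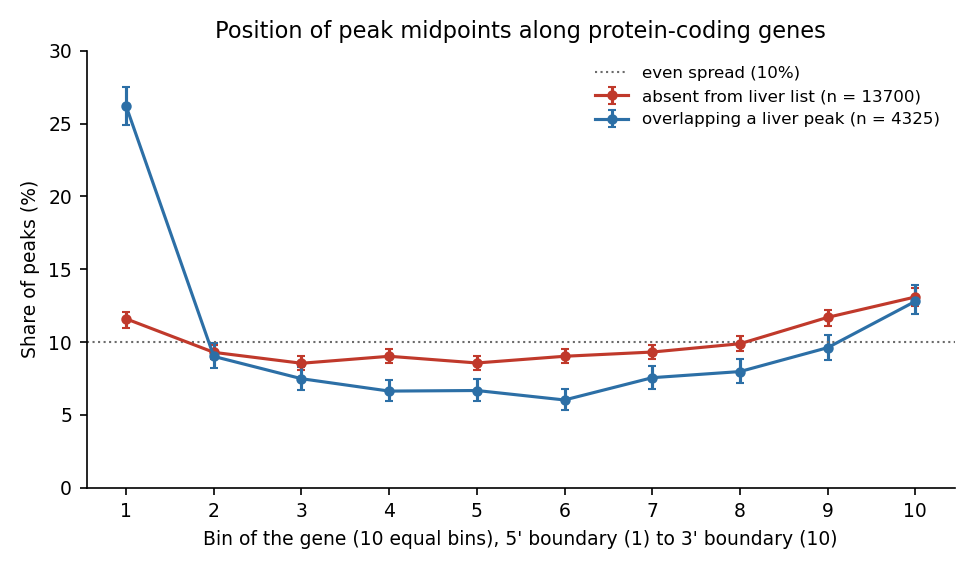
Share of peak midpoints (%) in each of 10 equal bins of a protein-coding gene of 10 kb or more, from the 5′ boundary (1) to the 3′ boundary (10), for members (red) and overlapping peaks (blue), with 95% Wilson intervals; the dotted line is an even spread of 10%. Overlapping peaks reach 26.2% in the first bin, where members stand at 11.6%, and the last bin holds 12.8% and 13.1%.

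The strand given to members was mostly that of the gene. How the authors gave a peak its strand is not stated in the labels. A strand taken from the gene would build in this agreement, and that was not tested. Of members at a single protein-coding gene with a known strand, 11309 of 11975 (94.4%) had the strand of that gene, and of overlapping peaks 3887 of 4210 (92.3%). At single lncRNA genes the shares were 71.7% of 237 members and 68.6% of 86 overlapping peaks. These shares cover only genes with a strand in the promoter table. The 1235 protein-coding genes whose strand was read from the peaks themselves were left out of them. The 2 strands were about equally represented, with 9120 plus and 8574 minus members. Neighbouring members within 5 kb of each other had the same strand in 90.7% of 5983 pairs. Pairs within 1 gene were not set apart, so this share is not separate from the agreement with the gene.

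Over genes, a stranded HEPA1-6 peak absent from the liver list lay at 6320 of 19889 protein-coding genes (31.8%), counting 1 kb on both sides. Such peaks were the only stranded HEPA1-6 peaks at 2977 genes (15.0%), called members-only genes here, and stood beside overlapping peaks at 3343 genes. An overlapping peak lay at 5624 genes (28.3%), and 11288 genes held neither kind. Absence from the liver list did not mean a gene without liver peaks: 64.2% of members lay at a gene that held a liver-list peak elsewhere, and 45.2% of genes with a member had none. The share of genes with a member rose with length from 994 of 7082 genes below 10 kb to 46.4% at 30 to 100 kb, and was 148 of 511 at 300 kb or more. Members-only genes had a member at the 5′ boundary in 957 of 2859 cases (33.5%), whereas overlapping-only genes had a peak there in 1480 of 2088 (70.9%). The 2 classes had median gene lengths of 25383 and 8902 bp, and overlapping peaks were wider. Neither was held equal in this contrast. Keeping only peaks with a score of 20 or more left 3975 genes with a member and 1841 members-only genes, and requiring 50% overlap raised the members-only count to 5541.

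Members were unevenly spread over genes. The 968 genes with 5 or more members were 15.3% of the genes with a member and carried 43.4% of all members, and the 201 genes with 10 or more carried 16.4%. At the other end, 2568 genes (40.6%) held 1 member each. Agap1, which encodes a GTPase-activating protein for Arf proteins in endosome traffic, held the most, 58 members over 440 kb with scores of 10 to 39. All but 2 of these were on the plus strand of the gene, and they stood among 15 overlapping peaks. Dst, a cytoskeletal linker, held 42, Dock1, an activator of Rac, 36, and Snd1, a nuclease and RNA-binding protein, 34. Mad1l1, of the spindle checkpoint, and Mgat5, an N-glycan branching enzyme, held 33 each. Nedd4l, a ubiquitin ligase, and Tcf4, an E-box transcription factor, held 32 each, and every one of these was on the plus strand. Ralgapa2, a regulator of Ral GTPases, held 30 and Fndc3b 27. Their densities ran from 7.16 members per 100 kb in Dock1 to 13.2 in Agap1, and all 10 genes also held overlapping peaks, 5 to 17 each.

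Some genes held many members and not a single overlapping peak; these were ranked by member count after values were seen. Cdc42bpa, a kinase that acts downstream of Cdc42, held 19 members, all on the plus strand of the gene, with a median score of 23.0 and the highest, 59, at 39.05 kb from the 5′ boundary. Ank3, which anchors membrane proteins to the spectrin skeleton, Ap3b1 and Slc22a23, an orphan transporter, held 18 each. Igf2bp3, an RNA-binding protein of fetal tissue and tumours, held 15 members and no liver-list peak over 130.3 kb. The first began at -0.870 kb from the 5′ boundary, upstream of it, with a score of 19, the highest-scoring, 50, stood at 119.3 to 120.5 kb, and 14 of the 15 were on the minus strand of the gene. Tmem131 held 16, Dennd1b 15, Med13l, a subunit of the Mediator kinase module, 14, Kif5c, a kinesin heavy chain, 13, and Atp11a, a phospholipid flippase, 12. Of these 10 genes, Ank3 held 1 liver-list peak and the others held none.

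**Figure D4:**
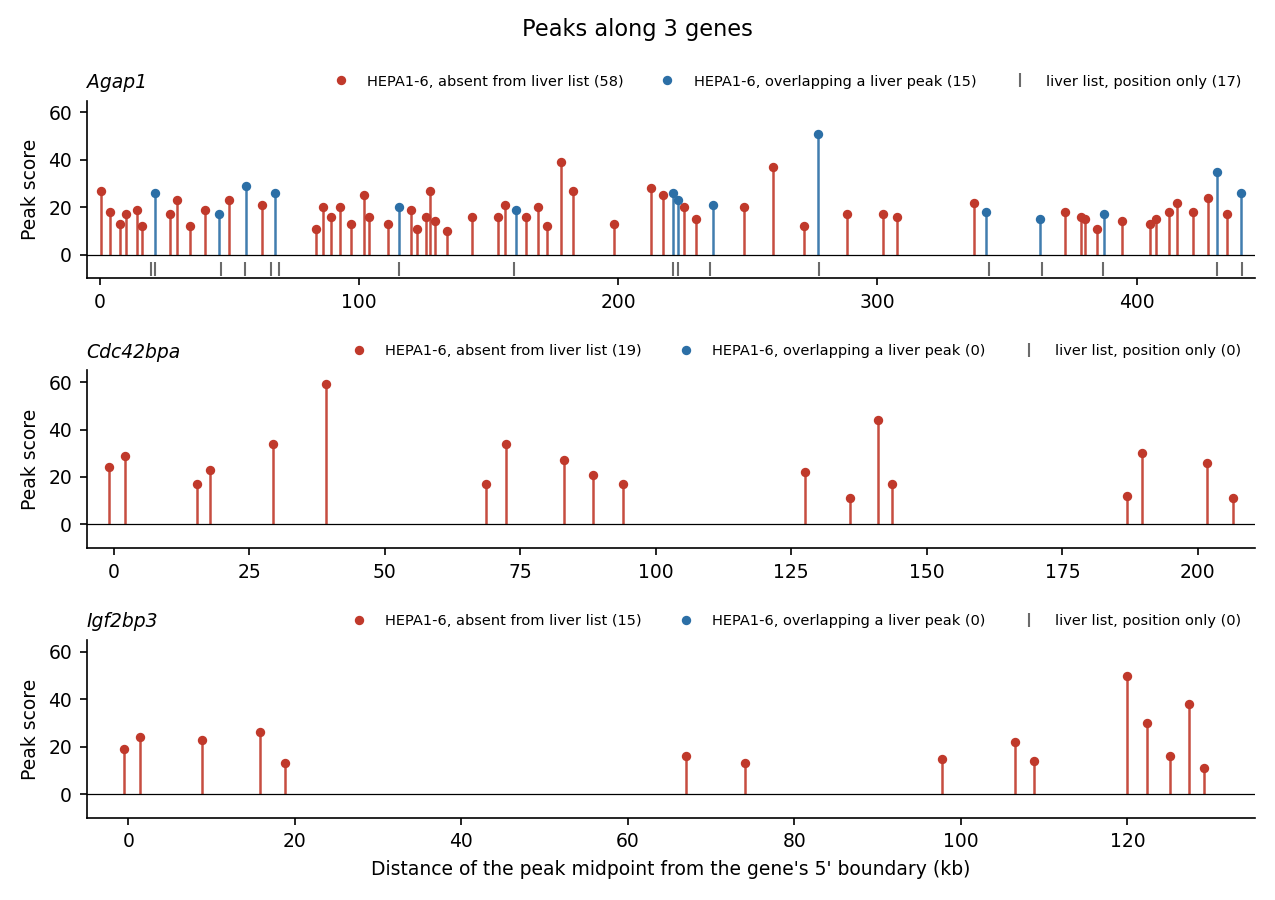
Peaks along Agap1, Cdc42bpa and Igf2bp3 by distance of the peak midpoint from the 5′ boundary (kb); stem height is the score in the HEPA1-6 list, for members (red) and overlapping peaks (blue), and grey ticks below the line mark liver-list peaks by position only. Agap1 holds 58 members among 15 overlapping peaks, whereas Cdc42bpa (19) and Igf2bp3 (15) hold members alone.

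The members-only genes with the highest scores were led by Mettl5, with 2 members scoring 24 and 131, both on the strand opposite to the gene. Plxna4, a semaphorin co-receptor, held 1 member with a score of 85 in 444 kb of gene. Anln, an actin-binding protein of cytokinesis, held 3 with scores from 19 to 79, and Ltv1, an assembly factor of the small ribosomal subunit, 3 from 13 to 78. Cd2ap, an adaptor linking receptors to actin, held 8 from 13 to 74. One member with a score of 72 was counted for both 1810009A15Rik and Lbhd1, and another of 72 for both Fastkd5 and Ubox5, which overlap. Ddx52, an RNA helicase, followed with 71, Aarsd1 and Stk38l with 70, Fam107b with 69, and Tesk2 and Toe1 shared 1 peak of 69. Chordc1 (68), Gm7072 (67), Cntnap4 and Prpf4 (66 each) and Marf1 (65) closed the first 20. The widths of these top members ran from 242 to 1225 bp, and only that of 1810009A15Rik lay within 1 kb of the 5′ boundary of its gene, although 33.5% of members-only genes held some member there.

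Gene lists were set beside the 31.8% of all protein-coding genes that held a member. Of 53 lists and families, 35 stood above this share and 18 below; the interval of 26 lay wholly above it, of 13 wholly below, and of 14 contained it. A long gene can meet more peaks, so median gene lengths are given beside many lists, to be read against 17448 bp over all protein-coding genes. With 1 list per source these are descriptions. Under a minimum score of 20, the count of genes with a member fell by more than 1.5 times in 25 of the 53 lists, for instance to 14 genes for DNA break repair, 16 for Wnt, 16 for the RNA polymerase II machinery, 22 for mitochondrial ribosomal proteins and 94 for Zfp genes, while the count over all protein-coding genes fell to 3975.

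Lists of regulators and of nuclear machinery held members at most of their genes. Overlapping peaks, found at 28.3% of all protein-coding genes, lay at 66.7% of the ubiquitin genes and 70.5% of chromatin regulators. They lay at 63.3% of the helicases, 61.0% of the RNA polymerase II machinery and 55.6% of nucleoporins. Members lay at 38 of 42 genes of ubiquitin ligases and deubiquitinases (90.5%, median length 89597 bp), with best scores of 52 in Usp34, 47 in Cul3, 46 in Spop and 44 in Nedd4l. They lay at 50 of 61 chromatin regulators (82.0%, median length 77291 bp), led by the demethylase Kdm1a (61, members only) and the remodeller Chd1 (60), then Chd8 and Kmt2a (48 each, both members only). Of DEAD and DEAH helicases 36 of 49 held one (73.5%), among them Ddx52 (71), Ddx10 (69), Ddx6 (58) and Ddx46 (51). Of the RNA polymerase II machinery 29 of 41 did (70.7%, median length 30674 bp), with Cdk13 at 57, Ell2 at 46, Supt5 at 45 and Med1 at 38. Splicing factors stood at 27 of 40 (67.5%), yet only 3 of the 40 were members-only genes, and 36 held an overlapping peak. Nucleoporins reached 13 of 18 (median length 50050 bp), with Nup214 at 46 and Nup153 at 42.

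Growth signalling pathways were above the background too. Overlapping peaks were likewise above their 28.3% of all protein-coding genes, at 74.4% (Wnt), 64.2% (receptor tyrosine kinase, MAPK and PI3K) and 60.7% (Hippo). Hippo pathway genes held members in 19 of 28 (67.9%), led by the giant cadherin Fat1 (69) and the transcription factor Tead4 (52, members only), then Taok1 (46) and Ptpn14 (40). Wnt genes did in 25 of 39 (64.1%), with the tankyrase Tnks at 56, the receptor Lgr5 at 50 and 15 members, Rnf43 at 42 and Lrp6 at 39. Receptor tyrosine kinase, MAPK and PI3K genes did in 32 of 53 (60.4%). Egfr, the epidermal growth factor receptor, held 19 members with a best score of 101, Map4k4 held 22 with 66, and Rptor, the mTORC1 scaffold, 27 with 39. These lists hold long genes, with medians of 46172 bp (Wnt) to 73155 bp (Hippo).

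Genes of DNA replication, the cell cycle, DNA break repair and the proteasome were above the background, at median lengths near that of all genes for each but break repair. Overlapping peaks lay at 56.1%, 53.8%, 41.0% and 56.4% of these lists in the same order, against 28.3% of all protein-coding genes. Members lay at 27 of 41 DNA replication genes (65.9%, median length 16234 bp), of which 12 were members only; the helicase subunit Mcm6 scored 63, Orc3 43, Rpa1 41 and Rrm1 39. They lay at 25 of 39 cell cycle genes (64.1%, median length 18378 bp), with Anln at 79, the spindle motor Kif11 at 46, E2f3 at 44 and the checkpoint protein Mad2l1 at 38. DNA break repair genes gave 24 of 39 (61.5%, median length 53955 bp) and 14 members-only genes (35.9%), at lower scores: Exo1 33, Parp1 and Xrcc5 31 each, Fanca 27. Proteasome subunits gave 27 of 39 (69.2%, median length 12293 bp), with Psmc4 at 63, Psmd6 at 55, Psmb2 at 46 and Psmc1 at 41.

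The ribosomal proteins of the 2 compartments differed in the kind of peak they held. Of 77 mitochondrial ribosomal protein genes, 37 held a member (48.1%) and 29 held members only (37.7%), such as Mrps22 (57), Mrpl33 (49), Mrpl10 (38) and Mrps5 (36). Of 76 cytosolic ribosomal protein genes, 7 held a member (9.21%), none held members only, and 71 held an overlapping peak (93.4%). Housekeeping genes likewise held overlapping peaks in 29 of 32 (90.6%) and members in 12 (37.5%), a share near the background. Core histone genes held members in 12 of 79 (15.2%) and overlapping peaks in 38 (48.1%); several of these genes share 1 peak, such as H2ac8 and H2bc8 at a score of 42. These counts depended on the 1 bp rule. With 50% overlap of both peaks required, peaks absent from the liver list lay at 24 of the 76 cytosolic ribosomal protein genes and 26 of the 79 core histone genes. They lay at 19 of the 32 housekeeping genes and 53 of the 77 mitochondrial ribosomal protein genes. Median lengths were 502 bp (core histone), 3249 bp (cytosolic), 5440 bp (housekeeping) and 7632 bp (mitochondrial). Of all protein-coding genes below 10 kb, 994 of 7082 held a member. That share lies inside the core histone (8.91 to 24.7%) and cytosolic (4.53 to 17.8%) intervals, and below the housekeeping and mitochondrial ones. List genes were not matched by length to other genes, so an effect of length was not tested.

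**Figure D5:**
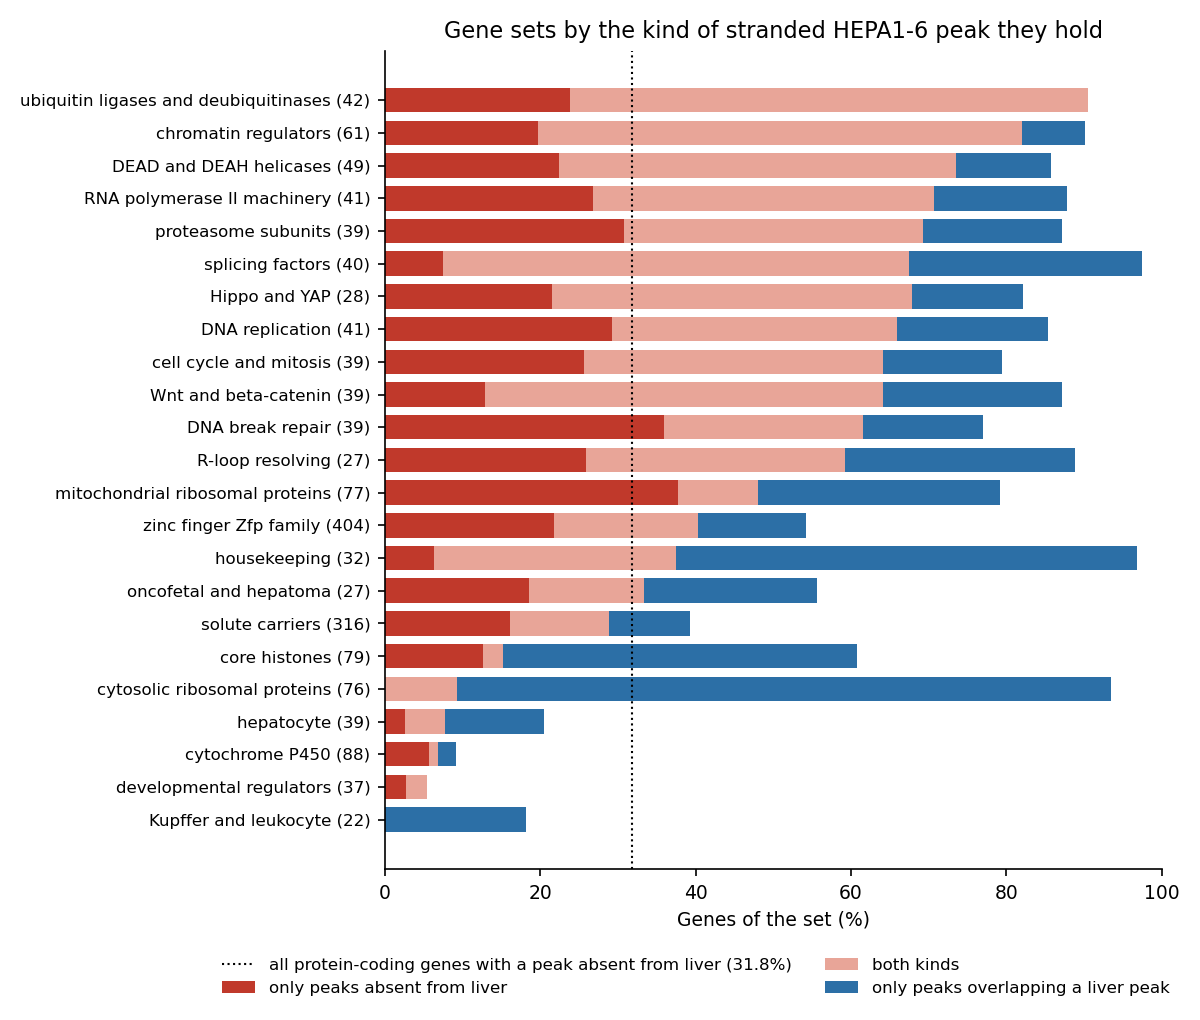
Genes of 23 of the 53 lists and families (number of genes in parentheses) by the kind of stranded HEPA1-6 peak they hold, as stacked shares of the list (%): members only (red), both kinds (pink), overlapping peaks only (blue). The dotted line is the 31.8% of all protein-coding genes with a member; ubiquitin genes reach 90.5% and cytosolic ribosomal protein genes 9.21%.

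Hepatocyte, cytochrome P450, developmental, Hox, olfactory receptor and leukocyte lists had intervals wholly below the 31.8% background. Of 39 hepatocyte genes 3 did (7.69%): Hpx, the haem scavenger, at 32, Trf, transferrin, at 22, and Apob, the main protein of liver lipoproteins, at 15. With 50% overlap required 6 did. Hepatocyte transcription factors, at 9 of 23 (39.1%, interval 22.2 to 59.2%), were near the background, with Gata4 at 58, Hnf4a at 34, Foxa3 at 33 and Prox1 at 30. Cytochrome P450 genes gave 6 of 88 (6.82%), developmental regulators 2 of 37 (5.41%), Hox genes 2 of 30 and olfactory receptors 1 of 1095 (0.0913%). Median lengths were 10898 bp (hepatocyte), 24167 bp (cytochrome P450), 4974 bp (developmental), 3542 bp (Hox), 949 bp (olfactory receptor) and 7085 bp (leukocyte). All but cytochrome P450 were below the 17448 bp of all protein-coding genes. A member lay at 994 of 7082 genes below 10 kb and at 2299 of 5888 genes (39.0%) of 10 to 30 kb. The hepatocyte and cytochrome P450 medians fall in the longer of these bands. Whether the shares of these lists are low for genes of such length was not tested. Markers of other liver cell types were at 0 of 22 genes for Kupffer cells and leukocytes, 4 of 18 for endothelium, 3 of 18 for stellate cells and fibroblasts (Dcn with 6 members and a best score of 44) and 1 of 11 for cholangiocytes. Oncofetal and hepatoma genes, at 9 of 27 (33.3%), were near the background as a list, while Igf2bp1 (60), Igf2bp3 (50), Tspan8 (33) and Cd44 (31) held its highest members.

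Other regulatory and metabolic lists held members in 39.1 to 61.8% of their genes. Overlapping peaks lay at 44.4 to 73.9% of the genes of these lists, against 28.3% of all protein-coding genes. TGF-beta and BMP genes gave 24 of 39 (61.5%, median length 46162 bp), with the receptors Acvr1 at 41 (members only) and Tgfbr2 at 35 (10 members, members only), the corepressor Skil at 38 and the ligand Bmp7 at 33. The p53 pathway gave 19 of 34 (55.9%), with the cyclin-dependent kinase inhibitor Cdkn1b at 61, the apoptosis effector Bbc3 at 60, Zmat3 at 47 and the repair protein Xpc at 32. Autophagy and lysosome genes gave 21 of 34 (61.8%), of which 10 held members only, led by Atg16l1 (39) and Becn1 (38). Stress response genes gave 20 of 33 (60.6%), with the chaperone Hsp90b1 at 45 and the amino acid enzyme Asns at 38. Notch genes gave 13 of 27 (48.1%, median length 37498 bp), with an interval of 30.7 to 66.0% that contained the background. Maml3 and Rbpj stood at 43 each, and the receptor Notch2 held 19 members with a best score of 28. Cholesterol and fatty acid synthesis gave 16 of 32, with Sc5d at 46, whereas glycolysis, at 9 of 23 (39.1%), was near the background (14 genes with 50% overlap required and 5 with a minimum score of 20).

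Among families taken by gene name, members lay at 163 of 404 Zfp genes (40.3%), of which 88 held members only. Zfp955a (74), Zfp386 (60), Zfp87 (52) and Zfp397 (50) held the highest. Translation initiation factors gave 24 of 44 (54.5%), with Eif5b at 61 and Eif3m at 54, and 65.9% of them held an overlapping peak. Kinesins gave 16 of 36 (44.4%, median length 46047 bp), led by Kif5c at 55 with 13 members, and their interval of 29.5 to 60.4% contained the background. F-box proteins gave 34 of 73 (46.6%) and TRIM and RNF proteins 61 of 146 (41.8%), the latter led by Trim7 (60) and by Rnf115 and Rnf20 (48 each), all 3 members only. Solute carriers stood at 91 of 316 (28.8%) and nuclear receptors at 14 of 40 (35.0%, median length 43935 bp), both near the background. Collagens gave 4 of 39 (10.3%) with a median length of 106511 bp (9 genes with 50% overlap required), with 16 of the 25 collagen members in Col27a1. Of 17 abundant lncRNA genes 6 held a member (35.3%, interval 17.3 to 58.7%), whereas the background covers protein-coding genes only. Airn, an imprinted antisense RNA whose span overlaps that of Igf2r, held 8 members with a best score of 58.

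Genes whose products resolve R-loops held members themselves in 16 of 27 cases (59.3%, interval 40.7 to 75.5%), and 63.0% of them held an overlapping peak. The helicase Dhx9 had a best score of 34, the nuclease Ercc4 31 and the THO subunit Thoc5 29. Rnaseh1, which encodes the nuclease used as control in this assay, held 1 member of 252 bp with a score of 15 and no liver-list peak; it was looked up after the lists had been counted.

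Promoter windows under members had the base composition of CpG-rich promoters. The windows were those of the RefSeq table, 300 bases from 250 before to 50 after the start. The 926 windows met by members only had a median GC content of 61.7%, the 3134 met by overlapping peaks only 63.7%, and the 15495 without a HEPA1-6 peak 54.7%. The median ratio of observed to expected CpG was 0.798, 0.834 and 0.458 in the same order. The excess of G over C on the gene's strand, (G - C)/(G + C), had medians of 0.000, 0.018 and 0.016 over the whole window, and of 0.097, 0.111 and 0.067 over the 50 bases after the start. Interquartile ranges of the first were wide, -0.082 to 0.088 for members, so the windows of the 3 classes overlapped broadly in this measure. A run of GGGG on the gene's strand was found in 79.7% of member windows, 83.3% of overlapping ones and 73.4% of all windows. A run of CCCC, which is the same run on the other strand, was found in 80.2%, 81.7% and 70.4%. Of windows wholly inside a peak, 476 of 584 (81.5%) at members and 2034 of 2675 (76.0%) at overlapping peaks had the strand of the peak. How that strand was given is not stated, so agreement with the gene may be built in.

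Members also met 42 of 884 miRNA hairpins by 1 bp or more, against 144 for overlapping peaks. A miRNA gene was overlapped by 0.237% of the 17694 members and 1.81% of the 7661 overlapping peaks, which were wider. Mature sequences are given for 3 miRNAs known from growth control, picked by name after the list was seen, with the seed (bases 2 to 8) in capitals.
mmu-miR-21a-5p: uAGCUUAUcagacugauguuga
mmu-miR-101b-3p: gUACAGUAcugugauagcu
mmu-miR-195a-5p: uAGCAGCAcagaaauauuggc

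The Mir21a hairpin (chr11:86584067-86584158) lay in a member of 589 bp with a score of 28, on the hairpin's minus strand. That of Mir101b (chr19:29135279-29135375) lay in a member of 1672 bp with a score of 29, on the plus strand of the hairpin. That of Mir195a (chr11:70235042-70235135) was met by a member of 318 bp with a score of 15 on the opposite strand. The best-scoring member that met a hairpin was at Mir3063, with a score of 60, and is the same peak as the best of Igf2bp1. No mature sequence of these 3 shares its seed with another of them.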

How the data were processed

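S9.6 immunoprecipitates, RNase H1 controls and inputs of HEPA1-6 cells and mouse liver were sequenced, and 1 peak list per source was used. The authors deposited a score per peak, on a scale that is not given, with position and strand. How the strand was given is not stated in the labels. The labels' protocols state 75-base paired reads. CASAVA 1.8.2, cutadapt, Bowtie2, bedtools, SAMtools, MACS2 and build mm10 are named in the submitters' processing notes. Library depth and RNase H1 values were not analysed here. The members and gene lists were chosen with earlier results of these data known.

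Peaks were compared by position with Python 3.11.15, pandas 2.3.3 and SciPy 1.17.1. Genes came from a RefSeq table of GRCm38.p6, with strands from its promoter table (27025 genes) or, for 1536 genes, the majority strand of peaks at that gene alone. A gene held a peak within 1 kb of its body. No test was possible with 1 list per source. The functions that overlap intervals were tested on simulated peaks with planted overlaps. Named genes were the top members by score and width, the genes with most members, the top members-only genes, and up to 4 genes per list by best score; promoters on chromosome 18 were not printed; others are said to be chosen later. Alternatives were another overlap rule, score minimum, set of chromosomes, flank and gene definition. Some items that the naming rule would give are not reported here.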

Additional observations from a re-analysis of the deposited data

How the results depend on the processing

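No paired analysis was possible because each source has 1 merged list; leaving out a replicate was not possible for the same reason. Of 72 recomputed values of the 10 main results, 33 fell inside the 95% interval around the reported one or, for counts of genes, within 1.5 times of it; 39 did not. With 50% overlap of both peaks required, members made up 87.1% of peaks, with median scores of 19 (members) and 44.0 (overlapping), median widths of 1030 and 2070 bp, 94.2% of members in a gene, 14.1% at a 5′ and 15.4% at a 3′ boundary, and 5541 members-only genes. With liver intervals widened by 1 kb, members made up 69.1%. With peaks at or above the median score only, the share was 48.2%, the median scores 26.0 and 39.0, the widths 1052 and 3233 bp, the boundary shares 11.7% and 13.7%, with 3663 genes holding a member and 1702 members only. With a minimum score of 20 these were 50.8%, 25 and 38.0, 1044 and 3195 bp, 11.5% and 13.4%, 3975 and 1841 genes. Over chromosomes 1 to 19, X and Y the share was 68.2%, and overlapping peaks had a median score of 34.0 and width of 2787 bp. By peak midpoint, 91.4% of members lay in a gene, 6.76% at a 5′ and 7.16% at a 3′ boundary; within 2 kb these were 98.1%, 13.1% and 17.1%. With gene strands from the promoter table only, an alternative chosen after seeing the data, 7.94% and 9.66% of members lay at a 5′ and 3′ boundary. In every alternative run, members had lower median scores and widths than overlapping peaks. Of 212 recomputed gene list counts, 177 stayed within 1.5 times; 25 of those that did not came from the minimum score of 20. The depth of both lists is unknown, so absence from the liver list is absence above that list's threshold.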
